A study of Homo sapiens with 4 samples.

Results

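The 41 genes described here code for the proteins that copy DNA at the replication fork, load and start its helicase, and supply deoxynucleotides. They were taken from a fixed list of symbols, 41 of 51714 Ensembl gene identifiers in the files, and all 41 were found by symbol. RNA came from Raji, an established B cell line of human origin derived from an Epstein-Barr-virus-positive Burkitt lymphoma. WT cells (2 libraries) expressed, from a transfected plasmid, RPB1 with an HA tag and resistance to α-amanitin. RPB1 is the largest subunit of RNA polymerase II, and the WT form kept the arginine R1810 of its C-terminal domain. R1810A cells (2 libraries) expressed the same tagged, resistant RPB1 with alanine at that residue, which removes a methylation site. Both kinds of cell were polyclonal batches selected with G418 for 6 to 12 days and then with α-amanitin for 10 days, so that the resistant subunit replaced the endogenous one, and they still held the endogenous gene. Total RNA was depleted of ribosomal RNA before sequencing, and the study asked whether loss of the methylated residue alters gene expression. No label states that replicate libraries were grown as separate cultures, so each p-value reflects the scatter of these 4 libraries, and that scatter may be technical.

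Each library held between 2081636 and 2991959 gene counts, and the 41 genes together took 0.640% of counts in both WT libraries and 0.584% and 0.620% in R1810A. The B cell markers MS4A1, CD79A, CD79B, CD22, PAX5 and CD74 were all present, with a mean of 806 RPKM for CD74, and none of them passed the test between groups. CD3D and CD2 of T cells had 0 reads in every library, and CD3E and CD3G had no more than 2 in any. The myeloid markers differed among themselves. CSF1R had 445 and 394 reads in the WT pair and 508 and 324 in the R1810A pair. ITGAM had 56 and 33 reads, then 56 and 48, LYZ had 8 and 17, then 9 and 5, and CD14 had 1 and 0, then 0 and 1. In bulk RNA, fewer cells in S phase and less RNA per cell cannot be told apart.

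Replication starts when the origin recognition complex, CDC6 and CDT1 load the ring-shaped MCM helicase onto DNA. CDC45, the GINS complex and MCM10 then activate it. Polymerase α with primase lays down primers, polymerase ε copies the leading strand and polymerase δ the lagging strand. PCNA, a sliding clamp loaded by replication factor C (RFC), holds the polymerases on DNA, RPA coats single strands, and FEN1 and LIG1 join the lagging-strand fragments. Many of these genes are known targets of E2F transcription factors, which switch on transcription for S phase in dividing cells.

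Promoter windows from RefSeq on GRCh38.p14, 250 bases before to 50 after a start site, were found for 35 of the 41 genes. A window was scored for 4 E2F-type octamers (TTTCCCGC, TTTGGCGC, TTTCGCGC and TTTGCCGC) on either strand. At least 1 octamer was present in 17 of the 35 genes (48.6%), against 7.23% of 7922 tested genes with a window and 3.31% of all 35116 windows of that length. The 17 genes were CDC6, CDT1, GINS1, GINS2, GINS3, LIG1, MCM2, MCM3, MCM6, MCM7, PCNA, POLA1, POLA2, POLE, POLE2, RFC3 and TYMS. A CCAAT box (CCAAT on either strand) was present in 60.0% of the 35 and in 45.1% of tested genes (34.6% of all windows). A GC box (GGGCGG on either strand) was present in 77.1% and 77.8% (45.0% of all windows). The CHR-type hexamer TTTGAA, known from genes of mitosis, was present in POLE3 and RRM1, or 5.71%, against 13.9% of tested genes and 15.2% of all windows. Shares of windows count each window singly, while shares of genes count a gene with a match in any window. Counted by gene, the shares over all 27305 genes with a window were 3.99%, 39.7%, 48.3% and 18.2%, in the order of motifs above. These motifs overlap in places, as an E2F octamer can share its last bases with a GC box or with an octamer on the other strand.

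**Figure D1:**
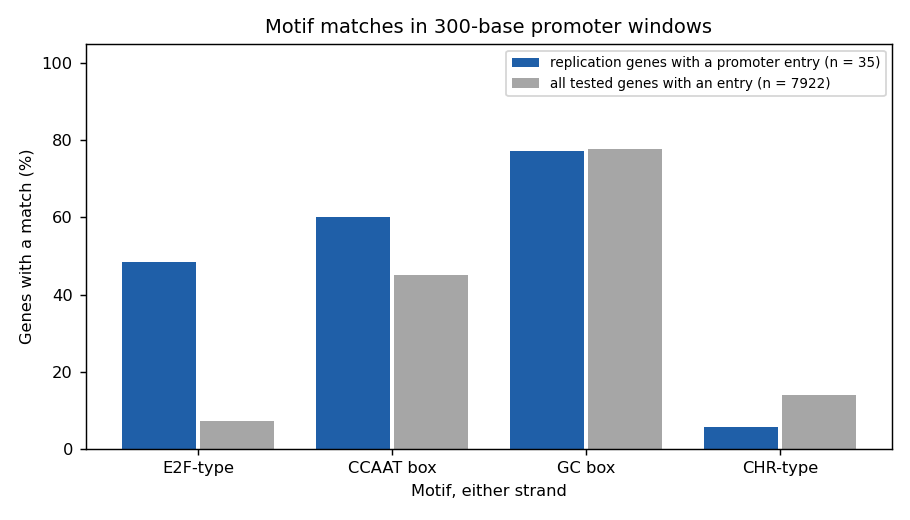
The bars give the share of genes (vertical axis, in percent) with at least 1 match to each motif on either strand in a promoter window of 300 bases, for replication genes (blue) and for all tested genes with a window (grey). The E2F-type octamers stand at 48.6% against 7.23%, while the GC box is at nearly the same share in both.

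Of the replication genes, POLD2 had the lowest level in R1810A relative to WT, although it missed the threshold of the test described below. Windows of 4 genes show the contrast between POLD2, its partner POLD1, and a pair of genes with E2F-type octamers. They lie at chr7:44123499-44123798 (minus strand) for POLD2, chr19:50384073-50384372 (plus) for POLD1, chr20:5126573-5126872 (minus) for PCNA and chr2:135876394-135876693 (minus) for MCM6. They are written from 5′ to 3′ on the gene's strand, and 1 of 2 windows in the table is shown for POLD1 and for PCNA. Capitals mark E2F-type octamers, CCAAT boxes and GC boxes on either strand.
POLD2: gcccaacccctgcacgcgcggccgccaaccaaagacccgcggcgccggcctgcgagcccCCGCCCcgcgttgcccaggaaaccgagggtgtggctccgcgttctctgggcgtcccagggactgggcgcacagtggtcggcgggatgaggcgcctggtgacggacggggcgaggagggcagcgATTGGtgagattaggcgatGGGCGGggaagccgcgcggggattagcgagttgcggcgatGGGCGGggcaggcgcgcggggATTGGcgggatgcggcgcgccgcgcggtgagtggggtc
POLD1: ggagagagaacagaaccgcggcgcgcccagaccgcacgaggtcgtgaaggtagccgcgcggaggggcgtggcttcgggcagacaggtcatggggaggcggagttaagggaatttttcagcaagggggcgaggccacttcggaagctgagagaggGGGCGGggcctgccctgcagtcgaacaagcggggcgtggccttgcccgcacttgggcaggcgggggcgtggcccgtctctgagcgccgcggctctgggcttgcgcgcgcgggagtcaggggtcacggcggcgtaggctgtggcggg
PCNA: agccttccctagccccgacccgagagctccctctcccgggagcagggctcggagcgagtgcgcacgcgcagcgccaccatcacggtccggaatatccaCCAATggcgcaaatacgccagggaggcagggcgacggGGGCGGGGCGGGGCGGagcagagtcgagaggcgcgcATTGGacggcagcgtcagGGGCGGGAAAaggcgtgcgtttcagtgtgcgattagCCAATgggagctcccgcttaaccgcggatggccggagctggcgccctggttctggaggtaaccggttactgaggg
MCM6: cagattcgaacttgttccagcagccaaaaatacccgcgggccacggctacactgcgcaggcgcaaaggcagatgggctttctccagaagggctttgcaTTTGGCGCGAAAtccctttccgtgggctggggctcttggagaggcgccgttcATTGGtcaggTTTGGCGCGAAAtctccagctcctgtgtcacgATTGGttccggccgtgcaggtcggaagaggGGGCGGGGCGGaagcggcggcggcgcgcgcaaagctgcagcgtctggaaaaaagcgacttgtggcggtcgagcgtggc
No E2F-type octamer was found in the POLD2 window, which held 3 GC boxes, at positions -191, -49 and -9 from the start site, and CCAAT boxes on the minus strand at -68 and 13. The POLD1 window shown held 1 GC box, at -96, and its other window held none of these motifs. The PCNA window shown held an octamer at -59, joined to a GC box, while its other window held GC and CCAAT boxes without an octamer. MCM6 held octamers at -152, -148, -90 and -86. A match is a description of letters and does not show binding.

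Levels can be compared between genes only per length, so the deposited RPKM (reads normalised by the authors to the deposited gene length and total reads) were used for that purpose. The mean RPKM over 4 libraries ran from 1.56 for POLA1, the catalytic subunit of polymerase α, to 126 for MCM4, a subunit of the helicase ring, an 81.0-fold range. The median was 14.3 RPKM, and that of all tested genes was 6.56. Subunits that work in 1 complex stood far apart in RPKM. Within polymerase α and primase, POLA2 was 16.8-fold above POLA1, and the order POLA2, PRIM1, PRIM2, POLA1 was the same in all 4 libraries. Within RPA, RPA2 (mean 38.6 RPKM) was 14.4-fold above RPA3 (2.68 RPKM), again in the same order in 4 of 4. The helicase subunits MCM2 to MCM7 were the most even of the complexes with more than 2 members, 4.39-fold from MCM4 to MCM5, although their full order in WT replicate 1 was found in no other library. MCM4 was the highest in 4 of 4 libraries and MCM5 the lowest in 3. These folds rest on the deposited gene lengths. The lengths were 6336 bases for POLA1 against 2478 for POLA2, and 3232 for RPA3 against 2019 for RPA2. They were 5879 for MCM5 against 3533 for MCM4. Whether such lengths match the RNA made in these cells was not tested. Every library shares them, so the same order across libraries does not check them.

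**Figure D2:**
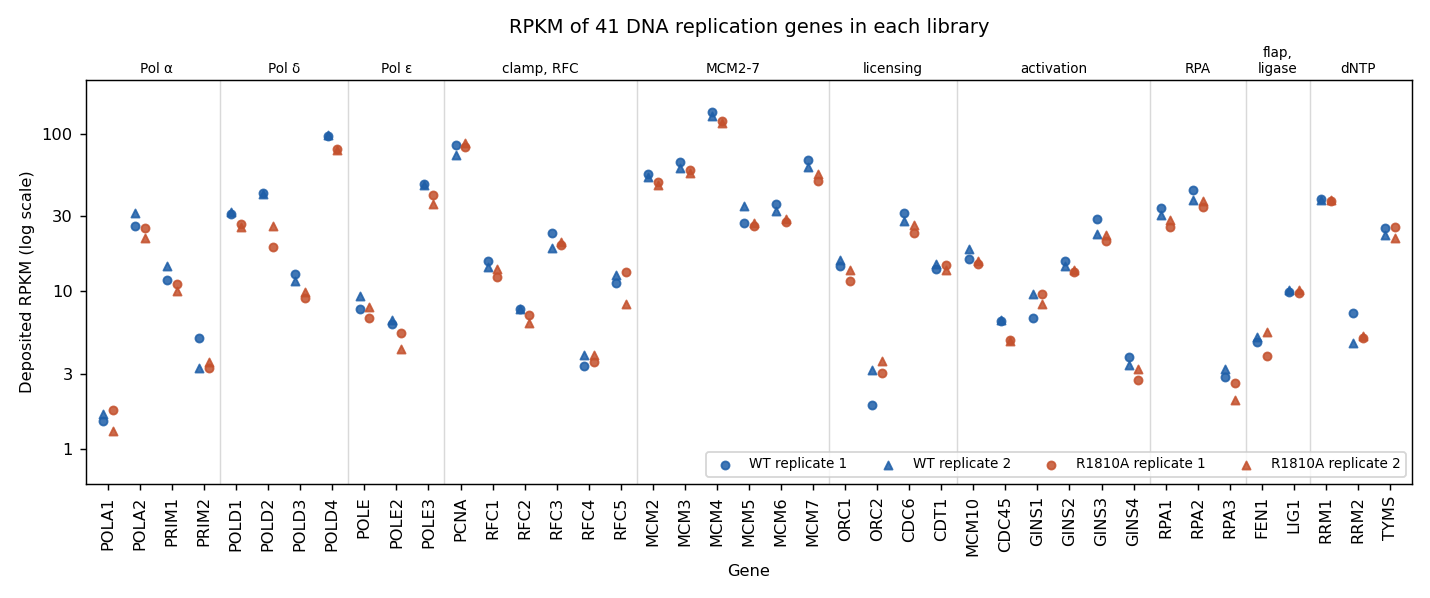
Each point is the deposited RPKM (vertical axis, log scale) of 1 gene in 1 library, with WT in blue, R1810A in orange, circles for replicate 1 and triangles for replicate 2, and genes grouped by complex. The spread between genes of a complex exceeds the spread between libraries, with means from 1.56 RPKM for POLA1 to 126 RPKM for MCM4.

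Pseudogene copies and shared exon bases may limit several values, and the sequence likeness of the copies was not measured. Of the 41 genes, 8 have pseudogene copies under their name in the files (11 copies), and 3 copies had at least 10 reads in every library: POLD2P1, PCNAP3 and RPA2P2. The division of reads between a gene and its copy is not given in the sources used here. By GENCODE 29, 13 of the 41 share exon bases with another gene in the files. POLD1 shares 426 bases with ENSG00000142539 on the same strand (757 and 802 reads in WT, 641 and 597 in R1810A). RFC4 shares only 21 bases with EIF4A2 on the opposite strand (313 and 543 reads, then 539 and 510). The longest overlap is 967 bases, of TYMS with ENOSF1 on the opposite strand (1 and 7 reads, then 5 and 2). MCM7 shares 392 bases with AP4M1 on the opposite strand. FEN1 shares 49 bases with FADS2 and PRIM1 shares 33 with NACA, both on the same strand. Reads in bases shared on the same strand cannot be told apart by strand. For bases shared on opposite strands the same holds here, with no use of strand stated.

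R1810A cells were compared with WT cells to learn whether the RNA of the replication machinery differed between them. No replication gene passed the threshold. POLD2, the second subunit of polymerase δ, had the lowest level in R1810A relative to WT (0.591-fold) and missed the threshold narrowly, while the other 40 genes lay between 0.810-fold (CDC45) and 1.41-fold (ORC2). The test was edgeR's quasi-likelihood test on raw counts over 10674 genes, with Benjamini-Hochberg adjustment at 0.05, and all 41 genes passed its filter on low counts. None of the 41 passed in either direction, against 37 higher genes (0.347% of those tested) and 1 lower gene (0.00937%). At an unadjusted p under 0.05, 0 were higher and 1, POLD2, was lower, against 4.94% and 3.06% of all tested genes. DESeq2 called 1 of the 41 lower, POLD2, and limma-voom 0, where those tools called 0.0187% and 0.00937% of all genes lower. DESeq2 and limma-voom called 0 of the 41 higher (0.365% and 0.225% of all genes).

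POLD2 (ENSG00000106628) holds the catalytic subunit POLD1 together with the accessory subunit POLD3 in polymerase δ. It had 630 and 821 reads in the WT pair and 283 and 393 in the R1810A pair, which were 276 and 273 CPM (reads of a gene scaled by TMM-corrected library size) in WT and 136 and 189 CPM in R1810A. The WT pair lay close together, both R1810A libraries were below them, and R1810A replicate 1 was the lower of its pair. The means were 275 ± 1.94 and 162 ± 37.7 CPM (SD, n = 2), which gave -0.76 ± 0.14 (SE) on the log2 scale or 0.591-fold, with an adjusted p of 0.061 in edgeR's test. By p it ranked 3 among the 5400 genes with a value below 0. Among 5424 genes with a mean count of at least 100, 4 including POLD2 had a log2 fold change that low or lower. POLD2 was singled out with results of these data known, so both standings are descriptions and add no support.

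The call on POLD2 turned on the setting while the direction did not. The adjusted p was 0.017 with DESeq2, 0.011 with edgeR scaled by the deposited total reads and 0.0028 with no filter, and 0.074 with limma-voom. Scaling by total reads lowered genes in general, with the median log2 fold change of all genes at -0.13 and POLD2 at -0.88. With edgeR and 1 library left out, it was 0.044 without WT replicate 1, 0.241 without WT replicate 2, 0.537 without R1810A replicate 1 and 0.00053 without R1810A replicate 2, at log2 fold changes from -1.02 to -0.54. The pseudogene copy POLD2P1 had 77 and 100 reads in the WT pair and 47 and 51 in the R1810A pair (-0.51 ± 0.20 SE on the log2 scale, adjusted p = 0.547 in edgeR's test). Its reads were 12.2% of those of POLD2 in both WT libraries and 16.6% and 13.0% in R1810A. With the reads of both summed, a choice made after seeing the data, the log2 fold change was -0.73 (SE 0.14, adjusted p = 0.060 in edgeR).

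The other subunits of polymerase δ lay below WT in both R1810A libraries, by smaller amounts. POLD1, the catalytic subunit, had 445 and 610 reads in the WT pair and 379 and 373 in the R1810A pair, or 199 ± 5.71 and 181 ± 1.63 CPM (SD, n = 2), which gave -0.14 ± 0.11 (SE) on the log2 scale. POLD4, the smallest subunit, had 367 and 489 reads against 294 and 298, or 162 ± 1.40 and 142 ± 1.68 CPM, which gave -0.19 ± 0.11 (SE) on the log2 scale. POLD3 had 181 and 216 reads against 125 and 140, which gave -0.24 ± 0.14 (SE) on the log2 scale. In these 3 genes and POLD2 the groups did not overlap, with R1810A lower, which was so for 19.5% of all tested genes. The adjusted p of the 3 in edgeR's test ranged from 0.681 to 0.773.

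Polymerase ε is made of a large catalytic subunit, POLE, and smaller partners. POLE3, a histone-fold subunit, had 516 and 664 reads in the WT pair and 426 and 386 in the R1810A pair (-0.20 ± 0.11 SE, log2), and the groups did not overlap. POLE2 had 43 and 60 against 37 and 30 reads (-0.27 ± 0.25 SE), with a counting error of 18.3% at 30 reads. Its groups did not overlap either. Of all tested genes, 19.5% had groups that did not overlap with R1810A lower. POLE had 284 and 451 against 245 and 294 reads (-0.09 ± 0.14 SE), and its groups overlapped. None of the 3 passed the test.

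For polymerase α and primase the groups overlapped in all 4 genes. POLA1 had 39 and 57 reads in the WT pair and 45 and 34 in the R1810A pair (0.07 ± 0.25 SE, log2), a sign that turned under scaling by total reads (-0.05). Its partner POLA2 had 264 and 422 against 252 and 223 reads (-0.17 ± 0.14 SE). The primase catalytic subunit PRIM1 had 70 and 114 against 65 and 60 reads (-0.20 ± 0.20 SE), and PRIM2 had 65 and 55 against 41 and 46 (-0.14 ± 0.26 SE). The replicates of PRIM2 differed by more than the groups did, with 28.5 and 18.3 CPM in WT.

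**Figure D3:**
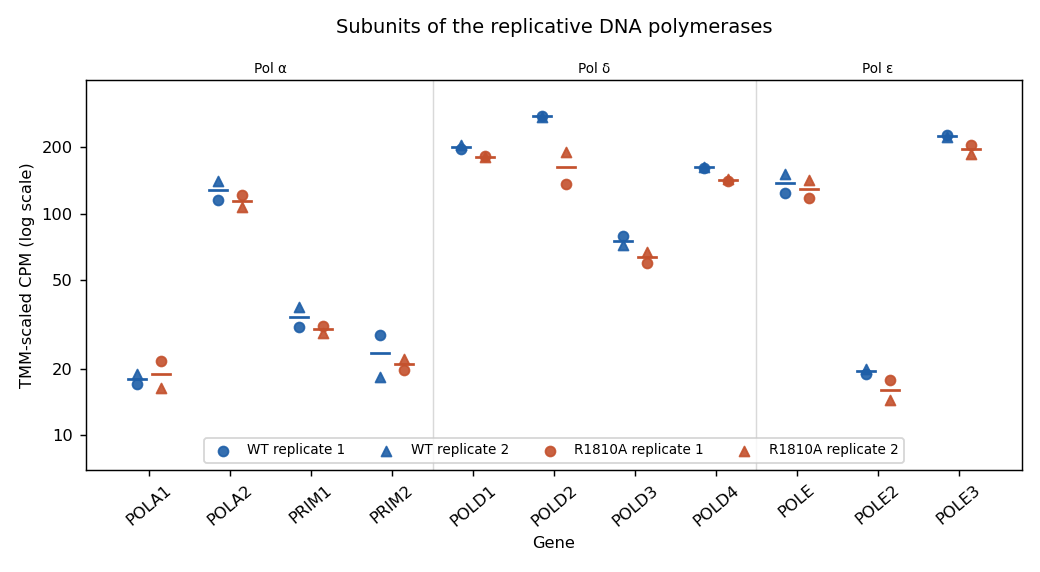
Points give TMM-scaled CPM (vertical axis, log scale) of the 11 polymerase subunits in each library, with WT in blue, R1810A in orange, circles for replicate 1, triangles for replicate 2 and short lines for the mean of 2 libraries. POLD2 has the widest gap between groups, 275 against 162 CPM on average.

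POLD2 was then set against the other subunits within each library, a ratio that needs no scaling between libraries. Its reads were 27.7% and 26.2% of the summed reads of the 10 other subunits in WT, and 14.8% and 20.9% in R1810A. Both R1810A libraries lay below both WT libraries, and the R1810A pair was wider apart than the WT pair. The means of 26.9 ± 1.09% and 17.8 ± 4.27% (SD, n = 2) had a ratio of 0.662, or -0.59 on the log2 scale. Against its partners POLD1, POLD3 and POLD4 alone, POLD2 stood at 63.4% and 62.4% in the WT pair and 35.5% and 48.5% in the R1810A pair, which is -0.58 on the log2 scale. The value against all 10 was -0.37 without R1810A replicate 1 and -0.86 without R1810A replicate 2. No p is given for these ratios, since the gene was singled out with results known.

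**Figure D4:**
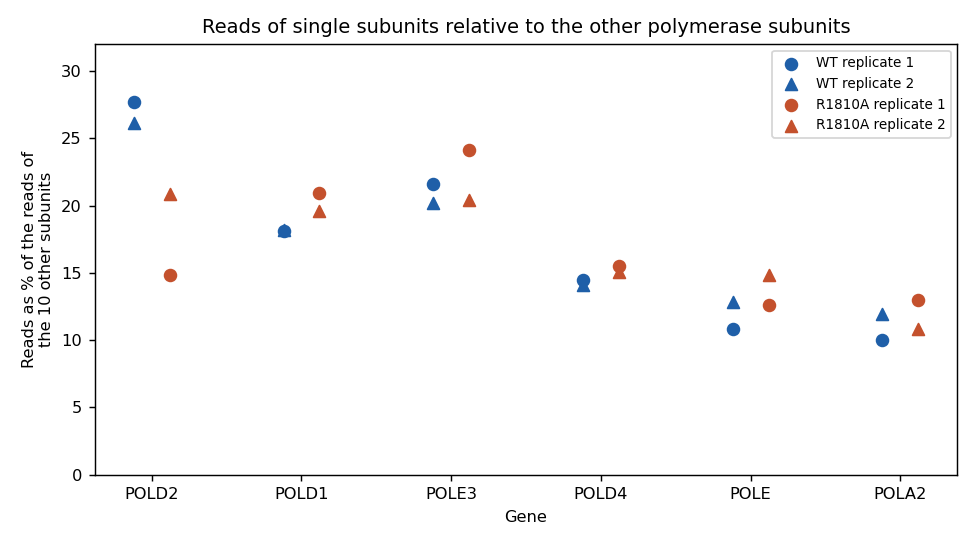
Points give the reads of a subunit as a percentage of the summed reads of the 10 other polymerase subunits (vertical axis) in each library, for POLD2 and the 5 subunits with the most reads after it, with WT in blue, R1810A in orange, circles for replicate 1 and triangles for replicate 2. POLD2 stands at 27.7% and 26.2% in WT and at 14.8% and 20.9% in R1810A, while the means of the 5 others are slightly higher in R1810A, with POLD2 among their denominators.

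Without POLD2, the other 10 subunits had a median log2 fold change of -0.18, and 9 were below 0 with edgeR and TMM scaling. They took 0.0978% and 0.105% of all counts in WT (exact Clopper-Pearson intervals at 95% of 0.0938 to 0.102% and 0.101 to 0.109%, counting error only) and 0.0902% and 0.0905% in R1810A (0.0862 to 0.0943% and 0.0865 to 0.0947%). The groups did not overlap, although the interval of WT replicate 1 overlapped both R1810A intervals. The 30 replication genes that are not polymerase subunits had a median of -0.06, with 20 below 0. That median was -0.0062 without WT replicate 1, -0.08 without WT replicate 2, -0.02 without R1810A replicate 1 and -0.10 without R1810A replicate 2.

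Over all 41, the median log2 fold change was -0.08, against 0.00 for all genes tested, and 30 (73.2%) were below 0, against 50.6% of all genes. The groups did not overlap in 13 genes that were lower (31.7%, against 19.5% of all tested genes) and in 5 that were higher (12.2%, against 19.8%). These shares describe the list and were not tested. The median of the 41 was -0.04 without WT replicate 1, -0.09 without WT replicate 2, -0.04 without R1810A replicate 1 and -0.13 without R1810A replicate 2. In the same order, 26, 27, 29 and 31 genes were below 0. With total reads as the scaling, the median of all genes became -0.13 and that of the 41 became -0.20. The median size of the log2 fold change was 0.12, and that of the log2 difference between replicates was 0.14 in WT and 0.17 in R1810A. A fold change compares pairs of libraries, while a replicate difference compares single libraries and scatters more, so the sizes are not directly comparable.

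**Figure D5:**
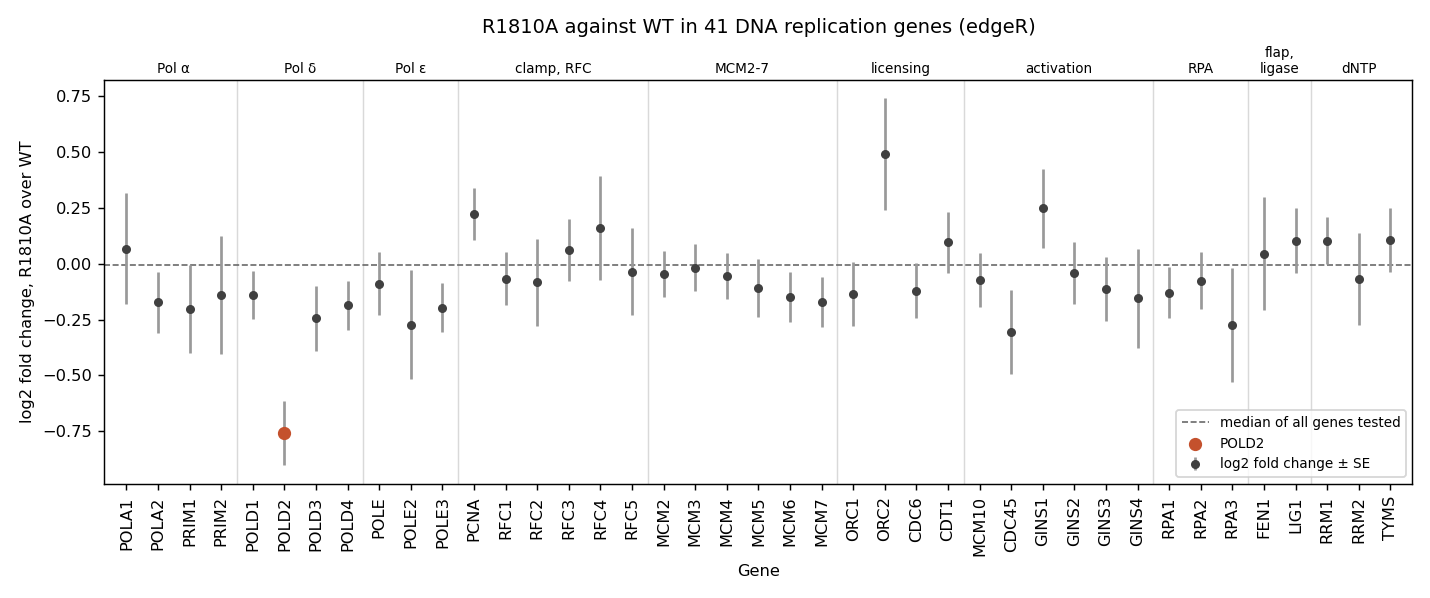
Points give the log2 fold change of R1810A over WT (vertical axis) from edgeR for the 41 genes, grouped by complex, with bars for ± 1 SE and a dashed line at the median of all genes tested. POLD2 is at -0.76, and the other 40 lie between -0.30 and 0.49.

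The clamp and its loader held values on both sides of 0, with 3 above and 3 below. PCNA, the clamp, had 512 and 587 reads in the WT pair and 489 and 530 in the R1810A pair. Its level was 224 and 195 CPM in WT and 235 and 255 CPM in R1810A, so the groups did not overlap, with a difference of 0.22 ± 0.12 (SE) on the log2 scale (adjusted p = 0.654 in edgeR's test). Its copy PCNAP3 had 31 and 35 reads in the WT pair and 21 and 17 in the R1810A pair. RFC4, the lowest of the loader genes per length, had 41 and 64 against 43 and 49 reads (0.16 ± 0.23 SE, log2). RFC5 differed more between R1810A replicates, with 73.4 and 47.1 CPM, than between groups. RFC1, RFC2 and RFC3 had log2 fold changes of -0.07, -0.08 and 0.06, and RFC3 turned to -0.06 under scaling by total reads.

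All 6 genes of the MCM2 to MCM7 ring were below 0 with each scaling tried, with small differences. MCM4 had 1990 and 2493 reads in the WT pair and 1705 and 1705 in the R1810A pair, or 851 ± 29.7 and 819 ± 1.86 CPM (SD, n = 2), which gave -0.05 ± 0.10 (SE) on the log2 scale. MCM5 had 655 and 1108 against 614 and 655 reads (-0.11 ± 0.13 SE), and its WT replicates, at 287 and 369 CPM, enclosed both R1810A values. MCM7 was the lowest of the 6 in edgeR with all libraries (-0.17 ± 0.11 SE) and MCM3 the nearest to 0 (-0.02 ± 0.11 SE), and MCM2 and MCM6 stood at -0.05 and -0.15. MCM3 was at 0.05 without WT replicate 1, and MCM5 at 0.08 without WT replicate 2.

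Among licensing genes, ORC2, a subunit of the origin recognition complex, had the largest positive log2 fold change of the 41, 0.49 (SE 0.25, adjusted p = 0.654 in edgeR's test). It had 45 and 100 reads in the WT pair and 71 and 87 in the R1810A pair. Its WT libraries stood at 19.7 and 33.3 CPM, and R1810A replicate 2 was the highest at 41.9 CPM. Its log2 fold change was 0.19 without WT replicate 1, where PCNA stood higher at 0.32, and 0.94 without WT replicate 2. The groups did not overlap, yet the gap between the WT replicates was wider than that between the nearest WT and R1810A libraries. CDC6, the ATPase that helps load the helicase, had 421 and 494 against 309 and 358 reads (-0.12 ± 0.12 SE). CDT1, which brings the helicase to origins, and ORC1 stood at 0.10 (SE 0.14) and -0.14 (SE 0.14), CDT1 at -0.03 under scaling by total reads.

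Of the factors that activate the helicase, CDC45 was the lowest. It had 78 and 104 reads in the WT pair and 58 and 58 in the R1810A pair, or 34.2 and 34.6 CPM against 27.8 and 27.9 CPM, with replicates close together and no overlap between groups. Its log2 fold change was -0.30 (SE 0.19, adjusted p = 0.706 in edgeR's test), and its counting error in the shallowest library was 13.1%. GINS3, the highest of the group in RPKM, had 282 and 297 against 201 and 225 reads (-0.11 ± 0.14 SE), and GINS4, the lowest, had 60 and 71 against 42 and 51 (-0.15 ± 0.22 SE). GINS1 stood at 0.25 (SE 0.18) with WT replicates of 51.3 and 72.9 CPM, and its groups overlapped. GINS2 and MCM10 stood at -0.04 and -0.07.

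All 3 RPA genes were below 0 under each scaling, and none passed. RPA2 stood at 160 and 139 CPM in WT and 133 and 151 CPM in R1810A (-0.08 ± 0.13 SE, log2), RPA1 stood at -0.13 (SE 0.12), and RPA3 had 38 and 56 against 34 and 27 reads (-0.27 ± 0.26 SE). The 27 reads of RPA3 in R1810A replicate 2 were the fewest of any of the 41 genes in a library, a counting error of 19.2%, against 2.00% for the 2493 reads of MCM4 in WT replicate 2.

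The lagging-strand genes and the nucleotide supply genes were near 0. LIG1, the ligase, had 125 and 171 reads in the WT pair and 120 and 130 in the R1810A pair (0.10 ± 0.15 SE, log2), and FEN1, the flap nuclease, had 44 and 62 against 35 and 51 (0.05 ± 0.25 SE). RRM1, the large subunit of ribonucleotide reductase, had 504 and 656 against 482 and 500 reads, or 220 ± 1.74 and 236 ± 6.65 CPM (SD, n = 2), which gave 0.10 ± 0.11 (SE) on the log2 scale. RRM2, its small subunit, had 147 and 125 against 101 and 107 reads (-0.07 ± 0.21 SE), with WT replicates of 64.4 and 41.6 CPM. TYMS, thymidylate synthase, stood at 0.11 (SE 0.14). With scaling by total reads LIG1, FEN1, RRM1 and TYMS were at -0.02, -0.08, -0.02 and -0.02.

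Further genes of the pathway held no gene past the threshold of edgeR's test. Of 31 other fork and origin genes, all tested, 12 were above 0 and 19 below (median -0.08), and 2 were lower at an unadjusted p under 0.05, where 3.06% of all tested genes were: DONSON, a replisome factor (-0.55 ± 0.18 SE on the log2 scale, adjusted p = 0.438), and WDHD1, which links polymerase α to the helicase (-0.37 ± 0.14 SE, adjusted p = 0.523). Of 17 other nucleotide supply genes, 16 were tested (median 0.03), with 9 above and 7 below 0. The thymidine kinase TK1 (-0.48 ± 0.12 SE, adjusted p = 0.189) had 336 and 457 reads in the WT pair and 218 and 230 in the R1810A pair, and PAICS of purine synthesis stood at -0.25 (SE 0.11, adjusted p = 0.594). Both were lower at an unadjusted p under 0.05, 2 of 16 against 3.06% of all tested genes.

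Repair, translesion and mitochondrial polymerase genes had 12 of 14 listed genes tested, 8 above and 4 below 0 with a median of 0.05, and none at an unadjusted p under 0.05. The genes of smallest p there were POLL (-0.25 ± 0.21 SE) and POLK (-0.17 ± 0.20 SE), polymerases of DNA repair and damage tolerance. Of 25 E2F and G1/S control genes, 24 were tested, 9 above and 15 below 0 with a median of -0.08. CDK2, the kinase that drives entry into S phase, stood at -0.29 (SE 0.12, adjusted p = 0.567) and CDC25A, the phosphatase that activates it, at 0.31 (SE 0.13, adjusted p = 0.581), the only 2 of the 24 at an unadjusted p under 0.05, where 3.06% of all tested genes were lower and 4.94% higher. E2F1, an activating member of its family, stood at 0.07 (SE 0.12). Among the 35 replication genes with a promoter window, the 17 with an E2F-type octamer had a median log2 fold change of -0.04 (range -0.27 to 0.25), and the 18 without one had -0.11 (range -0.76 to 0.49).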

How the data were processed

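RNA from 2 WT and 2 R1810A libraries was measured. The deposited files list unnormalised read counts for each Ensembl gene, per the file headers. The submitters' processing notes name Bowtie and hg19. How reads were counted, with or without strand, and what was done with multi-mapping reads is not given in the sources used here. Deposited RPKM values equalled counts over the deposited length and total reads in every row (relative tolerance 0.0001). Symbols from the reference tables matched 34838 of 51714 identifiers. POLG2 of the polymerase list was not analysed here. edgeR 4.0.16 in R 4.3.3 (filterByExpr, TMM, glmQLFit and glmQLFTest, group only) was fitted over 10674 genes and tested on simulated data. An SE is the log2 fold change over the square root of F. Alternatives were DESeq2 1.42.0, limma-voom (limma 3.58.1), other scalings, no filter, a replicate block and each library left out. Replication genes, gene lists and motifs were chosen with earlier results of these data known. Reads are given for polymerase subunits, for those of the 41 with an unadjusted p under 0.05 or non-overlapping groups with a log2 size of at least 0.3, and for the highest and lowest RPKM per complex (RPA2 as CPM). Of each further list the 2 genes of smallest p are named. Other counts and E2F1 were chosen after their values were seen. Intervals are exact Clopper-Pearson at 95% and, like the counting error (100 over the square root of the reads), cover counting only.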

Additional observations from a re-analysis of the deposited data

How the results depend on the processing

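Genes higher in R1810A numbered 37 and lower 1 with edgeR. They numbered 78 and 7 with no filter, 73 and 4 with the replicate block, 24 higher with limma-voom, 5 lower with total reads and 2 lower with DESeq2. With a library left out they ranged from 2 to 113 higher and 0 to 40 lower. Of the replication genes, POLD2 alone passed, as 1 lower gene, with DESeq2, no filter, the replicate block and total reads, and with a library left out 0 to 1 passed. Its log2 fold change was -0.88 with total reads, -0.77 with no filter, -0.76 with DESeq2, -0.77 with the replicate block (adjusted p = 0.0067) and -1.02 to -0.54 with a library left out. The cause was not tested. Same-numbered libraries did not deviate together (r = -0.04 over 10674 genes, a description), so the block is no evidence of pairing, and it changed the call of none of the other 40 genes. No other replication gene passed under any alternative (smallest adjusted p = 0.182, PCNA without WT replicate 1). A library left out leaves 1 in its group, assumed to vary like the other group.

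Of the other 40 genes, 18 changed sign under at least 1 of 10 alternatives. The largest log2 fold change among these 18 in edgeR with all libraries and TMM scaling was 0.141 in size. With total reads POLA1 was at -0.053, RFC3 was at -0.060, CDT1 was at -0.026, FEN1 was at -0.078, LIG1 was at -0.020, RRM1 was at -0.019, TYMS was at -0.015. With a library left out the log2 fold change ran, across both signs, POLA1 from -0.15 to 0.25, PRIM2 from -0.45 to 0.19, POLE from -0.23 to 0.055, RFC1 from -0.18 to 0.029, RFC3 from -0.089 to 0.21, RFC5 from -0.39 to 0.25, MCM3 from -0.083 to 0.046, MCM5 from -0.28 to 0.084, MCM10 from -0.18 to 0.043, GINS2 from -0.098 to 0.010, GINS3 from -0.27 to 0.048, RPA2 from -0.18 to 0.025, FEN1 from -0.26 to 0.29, RRM2 from -0.37 to 0.26, TYMS from -0.0023 to 0.20. Genes with few reads, such as RPA3, ORC2 and POLA1, have SEs near 0.25, which limits what this depth can show.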
